A study of Mus musculus with 6 samples.

Results

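The genes described here are 9 genes that restrain the cell cycle, regulate those that do, or mark cell senescence: the cyclin-dependent kinase (CDK) inhibitors Cdkn1a, Cdkn1b, Cdkn2a, Cdkn2b and Cdkn2c, the tumour suppressor p53 (Trp53) with its inhibitor Mdm2, the retinoblastoma gene Rb1, and Glb1. They were taken by symbol from a table of 24407 genes, and all 9 were found and passed the filter on low counts, which left 14539 genes. Messenger RNA was counted in islets of Langerhans, the hormone-secreting cell clusters of the pancreas. The islets came from wild-type C57BL/6 mice (WT) and from C57BL/6 mice whose Lmna gene gives lamin C as its only A-type lamin (LCS, with KIKI in the library names). Lamins are filament proteins that line the inside of the nucleus. There were 3 libraries per genotype, each from the pooled islets of 3 mice. All mice were 70 weeks old and ate regular chow, so both groups were aged and no young group was measured. A pool averages 3 animals, so the spread between libraries is a spread between pools.

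A cell divides when cyclins and CDKs phosphorylate the retinoblastoma protein and release the E2F transcription factors that it holds. Inhibitors of the CIP/KIP family (p21, encoded by Cdkn1a, and p27, by Cdkn1b) bind cyclin-CDK complexes, and those of the INK4 family (p16 from Cdkn2a, p15 from Cdkn2b, p18 from Cdkn2c) bind CDK4 and CDK6. Cdkn2a also gives p19Arf, which restrains Mdm2 and so stabilises p53, and p53 in turn activates Cdkn1a and Mdm2. In pancreatic beta cells, p16 is known to increase with age and to go with a low rate of division, and p27 and p18 are known to restrain beta cell number. Senescent cells leave the cycle for good, and their lysosomal beta-galactosidase, encoded by Glb1, is the usual stain for them.

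The count of Cdkn2a sums transcripts from 2 annotated starts, of which the upstream start gives p19Arf and the downstream start p16, and Cdkn2b is its neighbour on the same chromosome. Cdkn1a also has 2 annotated starts. The 100 bases before each of these starts are shown because a count per gene merges the starts; where further starts are annotated within 100 bases, the stretch ends before the first of them. The sequences are from RefSeq (GRCm38.p6), written 5′ to 3′ on the gene's strand, and the counts were made on mm9. Capitals mark matches, on either strand, to the GC box GGGCGG, to an E2F motif (TTTCCCGC, TTTCGCGC, TTTGGCGC or TTTGCCGC), or to the p53 decamer consensus.
Cdkn1a upstream start, chr17:29090876-29090975, plus strand: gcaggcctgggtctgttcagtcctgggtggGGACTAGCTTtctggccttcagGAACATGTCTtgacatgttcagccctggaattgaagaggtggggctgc
Cdkn1a downstream start, chr17:29093669-29093768, plus strand: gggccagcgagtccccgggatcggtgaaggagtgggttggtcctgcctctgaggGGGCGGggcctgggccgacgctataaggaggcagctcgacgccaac
Cdkn2a upstream start (p19Arf), chr4:89294654-89294753, minus strand: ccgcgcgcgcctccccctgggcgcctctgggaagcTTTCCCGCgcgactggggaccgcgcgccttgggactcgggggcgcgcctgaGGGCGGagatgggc
Cdkn2a downstream start (p16), chr4:89282193-89282292, minus strand: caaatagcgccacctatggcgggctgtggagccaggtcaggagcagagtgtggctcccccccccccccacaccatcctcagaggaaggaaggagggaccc
Cdkn2b, chr4:89311040-89311139, minus strand: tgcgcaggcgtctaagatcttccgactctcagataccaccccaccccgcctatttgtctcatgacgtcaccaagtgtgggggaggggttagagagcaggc

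Upstream of the first Cdkn1a start lay 2 p53 decamer matches, and 2.56% of the 32851 RefSeq windows of this length held at least 1. The p19Arf start had 1 E2F match, which 0.846% of windows held, and the E2F and p53 matches did not overlap any other match. The GC box stood before the p19Arf start and the downstream Cdkn1a start, and 24.7% of windows held one. No match to these 3 motifs or to the TATA box TATAAA (5.56% of windows) was found before the p16 start or Cdkn2b. These are matches of letters and say nothing of binding in the islets.

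The libraries held 26123654 to 68036676 counts. The rows Rn45s, Lars2 and Mir6236 together took 52.3% to 54.1% of the LCS counts and 7.64% to 18.5% of the WT counts. This left 19057533 to 32462401 counts in the other rows. Values below are CPM, counts scaled to a common library size by TMM, a method that rests on genes that differ little between libraries. Ins2, the insulin gene that defines beta cells, had 81650 to 163931 CPM, so the islet label held. Among 11 marker lists for cell types that islet preparations can hold, all tested markers passed only for acinar cells: 13 of 13 were higher in LCS, and the summed level over the 15 listed was 494 to 878 CPM in LCS against 136 to 218 CPM in WT, with 1 of the 15 at 0 in all libraries. PP cell markers summed to 3247 to 6029 CPM in LCS and 838 to 1489 CPM in WT, and the pancreatic polypeptide gene Ppy was 3.63-fold higher (edgeR adjusted p = 0.0172). Delta cell markers summed to 1747 to 2284 CPM in LCS and 312 to 1319 CPM in WT, with Rbp4 called higher. Most of this sum was Sst, at a log2 fold change (LCS minus WT) of 1.57, and Ghsr lay in the other direction at -0.64. Alpha cell markers summed to 16366 to 21726 CPM in LCS and 12483 to 16359 CPM in WT, with Gc called higher. Beta cell markers also summed higher, to 175311 to 263797 CPM in LCS and 147933 to 172357 CPM in WT, with none called. Nearly all of this sum was Ins1, Ins2 and Iapp. The median log2 fold change of the list was 0.11, and its genes ran from -0.77 for Slc2a2 to 0.63 for Ins2. Markers of endothelial cells (196 to 225 against 163 to 195 CPM) and lymphocytes (12.4 to 14.8 against 9.80 to 11.7 CPM) summed higher in LCS too, with none called. Sums for duct and Schwann cells overlapped between genotypes. Of 10 macrophage markers 1 passed, and they summed to 84.3 to 99.9 CPM in LCS and 55.8 to 72.5 CPM in WT. Their median log2 fold change (LCS minus WT) was only 0.02: Lyz2, which passed, was at 1.48 and Adgre1 at -0.62. Markers of stellate cells and fibroblasts overlapped, at 36.3 to 66.8 CPM in LCS and 32.8 to 103 CPM in WT, with the highest value in WT replicate 1. In such bulk samples, fewer cells of a type and less RNA per cell cannot be told apart. The part of these cells in the values below was not tested.

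Over all genes tested, the log2 CPM of WT replicate 1 differed from those of WT replicates 2 and 3 by 0.55 and 0.64 (root mean square), while those replicates differed from each other by 0.36. The LCS libraries differed from each other by 0.50 to 0.60, so the distances of WT replicate 1 were like those within LCS, and WT replicates 2 and 3 were the closest pair. Since leaving out WT replicate 1 moved the count of called genes more than leaving out any other library, calls that depend on it are given with and without it.

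None of the 9 genes passed the test between genotypes (edgeR's quasi-likelihood test with Benjamini-Hochberg adjustment over all 14539 genes, adjusted p under 0.05), where 2.21% of all genes did, 2.06% as higher and 0.144% as lower in LCS. At an unadjusted p under 0.05 there were 3 of 9, against 24.1% of all genes: Cdkn2b with the higher mean in LCS, and Cdkn1b and Rb1 with the lower. DESeq2 called 1 of 9, Rb1, against 10.4% of all genes (6.44% higher, 3.93% lower), and limma-voom called none, against 2.75% (2.54% higher, 0.206% lower). The groups did not overlap for 3 of 9, Cdkn2a higher and Cdkn1b and Rb1 lower in LCS, against 26.6% of all genes. With 9 genes, each of these counts is near what its background share gives. The 9 genes had a median log2 fold change (LCS minus WT) of 0.12 and all genes one of 0.01. When WT replicate 1 was left out, 2 of the 9 genes passed, Cdkn2b higher and Rb1 lower in LCS, and so did 20.2% of all genes.

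**Figure D1:**
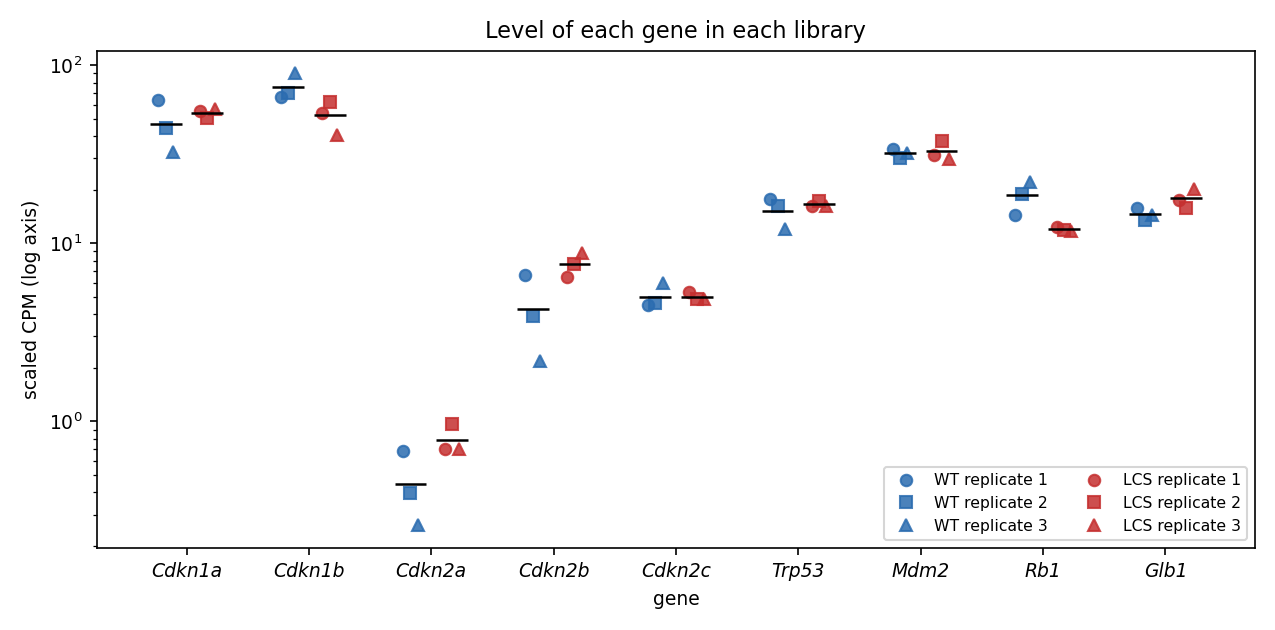
Scaled CPM on a log axis for the 9 genes, 1 point per library (blue for WT, red for LCS), and a black bar at each group's mean. The LCS values of Rb1 (11.7 to 12.3 CPM) lie below the 3 WT values (14.5 to 22.2 CPM), while for Cdkn2b WT replicate 1 (6.65 CPM) lies among the LCS values.

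Among the CIP/KIP inhibitors, Cdkn1a (gene 12575) varied little among the LCS pools and more in WT. In replicate order it had 55.1, 50.7 and 56.8 CPM in LCS and 63.6, 44.4 and 32.7 CPM in WT. The groups overlapped, since WT replicate 1 was the highest library of all and WT replicate 3 the lowest. The means were 54.2 ± 3.11 CPM in LCS and 46.9 ± 15.6 CPM in WT (SD, n = 3), a log2 fold change of 0.21 (SE 0.22, 95% confidence interval -0.28 to 0.70, edgeR adjusted p = 0.583). The log2 fold change without WT replicate 1 was 0.49 (SE 0.17, edgeR adjusted p = 0.063), and without WT replicate 3 it was 0.0045 (edgeR adjusted p = 0.993).

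Cdkn1b (gene 12576) showed the opposite order. It had 54.1, 62.5 and 40.7 CPM in LCS and 66.0, 70.0 and 90.1 CPM in WT, so every LCS library lay below every WT library, as was the case for 12% of all genes. The mean was 52.4 ± 11.0 CPM in LCS and 75.4 ± 12.9 CPM in WT (SD, n = 3). The log2 fold change was -0.52 (SE 0.19, 95% confidence interval -0.95 to -0.10) and did not pass (edgeR adjusted p = 0.145). The value without WT replicate 1 was -0.61, with an edgeR adjusted p of 0.0511. Cdkn1b counts per Cdkn1a count were 0.98, 1.23 and 0.72 in LCS and 1.04, 1.58 and 2.75 in WT, so the ratio was highest in WT replicates 2 and 3. These are ratios of raw counts, not corrected for transcript length.

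Among the INK4 inhibitors, Cdkn2a (gene 12578) was the rarest of the 9 genes, with 10 to 49 counts per library. It had 0.70, 0.96 and 0.70 CPM in LCS and 0.69, 0.39 and 0.26 CPM in WT. No WT library exceeded an LCS library, which held for 14.6% of all genes, but WT replicate 1 (33 counts, exact Poisson 95% interval 0.47 to 0.96 CPM) and LCS replicate 1 (20 counts, 0.43 to 1.08 CPM) could not be told apart at this depth; the intervals cover counting error only. The log2 fold change was 0.81 (SE 0.44, 95% confidence interval -0.18 to 1.79, edgeR adjusted p = 0.288). It was 1.27 without WT replicate 1 (SE 0.49, edgeR adjusted p = 0.0886) and 0.54 without WT replicate 3 (edgeR adjusted p = 0.668). Whether p16 or p19Arf messages make up these counts cannot be read from a count per gene.

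Cdkn2b (gene 12579), like Cdkn2a, had its lowest values in WT replicates 2 and 3. It had 6.47, 7.64 and 8.80 CPM in LCS and 6.65, 3.92 and 2.19 CPM in WT, so that WT replicate 1 lay above the lowest LCS library and WT replicates 2 and 3 lay below all LCS libraries. There were 7.94 to 12.5 Cdkn2b counts per Cdkn2a count in LCS and 8.40 to 9.94 in WT. The mean was 7.64 ± 1.17 CPM in LCS and 4.26 ± 2.25 CPM in WT (SD, n = 3). The log2 fold change was 0.84 (SE 0.35, 95% confidence interval 0.07 to 1.61) and did not pass (edgeR adjusted p = 0.18). Cdkn2b passed without WT replicate 1, at 1.32 (2.50-fold higher in LCS, SE 0.27, edgeR adjusted p = 0.00945), as did 12.5% of all genes in that direction. Leaving out WT replicate 3 instead gave 0.53 (edgeR adjusted p = 0.439).

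Cdkn2c (gene 12580), the third INK4 gene, had the smallest difference of the 9. It had 5.35, 4.87 and 4.85 CPM in LCS and 4.51, 4.61 and 5.96 CPM in WT. The groups overlapped, and the means were 5.02 ± 0.28 CPM in LCS and 5.03 ± 0.81 CPM in WT (SD, n = 3). The 95% confidence interval of the log2 fold change ran from -0.45 to 0.45 (edgeR adjusted p = 0.998).

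Trp53 (gene 22059) and Mdm2 (gene 17246), which encodes the ubiquitin ligase that marks p53 for degradation, lay close together in the 2 genotypes. Trp53 had 16.3, 17.2 and 16.2 CPM in LCS and 17.7, 16.1 and 12.0 CPM in WT. Its log2 fold change was 0.12 (SE 0.18, 95% confidence interval -0.27 to 0.51, edgeR adjusted p = 0.697). The LCS libraries were nearly equal, WT replicates 1 and 2 lay just above and just below them, and WT replicate 3 was the lowest. Mdm2 had 31.4, 37.4 and 29.9 CPM in LCS and 33.7, 30.0 and 32.3 CPM in WT. The groups overlapped fully, with a log2 fold change of 0.04 (SE 0.15, 95% confidence interval -0.29 to 0.37, edgeR adjusted p = 0.888). These messages do not measure the amount of p53 protein, which is set largely by its degradation.

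Rb1 (gene 19645), which encodes the retinoblastoma protein that the CDKs inactivate, had the smallest p of the 9. It had 12.3, 11.9 and 11.7 CPM in LCS and 14.5, 19.0 and 22.2 CPM in WT. All LCS libraries were within 1 CPM of each other and below all WT libraries, and WT replicate 1 was the nearest to them. The mean was 12.0 ± 0.32 CPM in LCS and 18.6 ± 3.86 CPM in WT (SD, n = 3). The log2 fold change was -0.63 (SE 0.18, 95% confidence interval -1.04 to -0.23) and did not pass (edgeR adjusted p = 0.0913). Rb1 passed in the DESeq2 test, at -0.66 (adjusted p = 0.0251), and without WT replicate 1, at -0.78 (1.72-fold lower, SE 0.16, edgeR adjusted p = 0.00817), as did 3.93% and 7.68% of all genes in that direction. Without WT replicate 3 it was at -0.48 (edgeR adjusted p = 0.329). Lpar6, a lysophosphatidic acid receptor gene, overlaps Rb1 in RefSeq. It had 362 to 750 raw counts in LCS and 585 to 670 in WT, not scaled for library size. The strand setting of the counting is not given in the sources used here.

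Glb1 (gene 12091) had 17.6, 15.8 and 20.3 CPM in LCS and 15.8, 13.6 and 14.4 CPM in WT. LCS replicate 2 and WT replicate 1 were level, and the other LCS libraries lay above all WT libraries. The mean was 17.9 ± 2.27 CPM in LCS and 14.6 ± 1.12 CPM in WT (SD, n = 3), a log2 fold change of 0.29 (SE 0.16, 95% confidence interval -0.06 to 0.65, edgeR adjusted p = 0.289). Tmppe, a metallophosphoesterase gene that overlaps Glb1 in RefSeq, had 309 to 592 raw counts in LCS and 636 to 677 in WT. These counts were not scaled for library size.

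**Figure D2:**
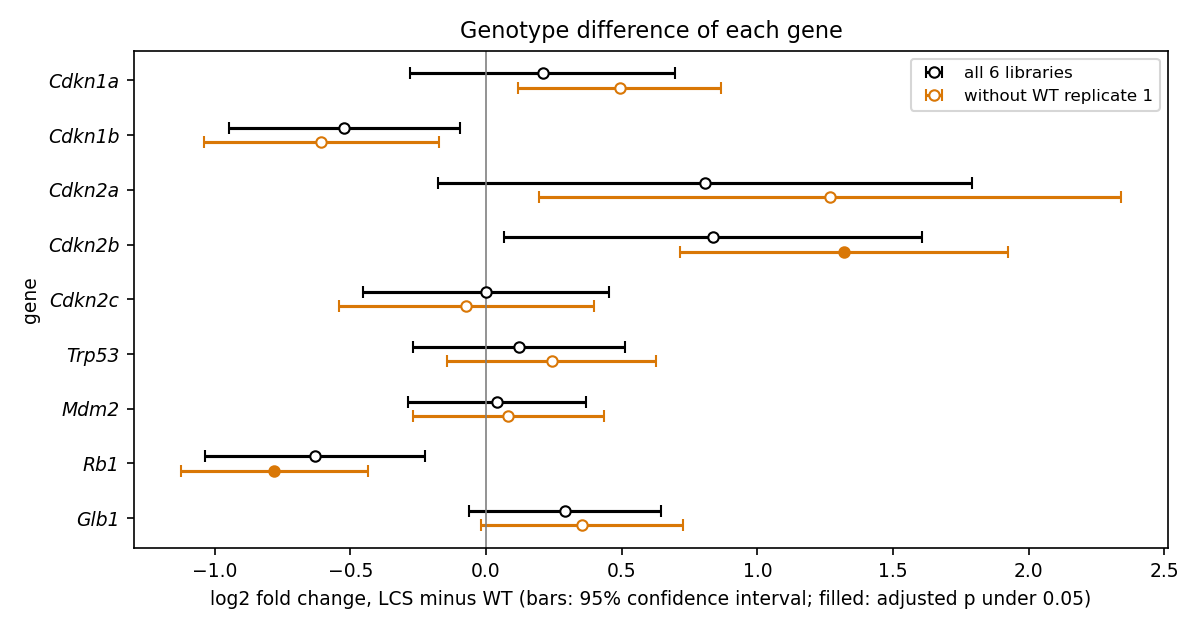
Log2 fold change of each gene (LCS minus WT) with its 95% confidence interval, from all 6 libraries in black and without WT replicate 1 in orange; filled points passed at an adjusted p under 0.05. No black point is filled, and the orange points of Cdkn2b (1.32) and Rb1 (-0.78) are.

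Per kilobase of transcript, Cdkn1a and Cdkn1b were the most abundant of the 9 messages. In WT, Cdkn1b had 31.5 ± 5.39 CPM per kb and Cdkn1a 30.4 ± 10.1, which did not differ beyond their spread. In LCS, Cdkn1a had 35.1 ± 2.02 CPM per kb and Cdkn1b 21.9 ± 4.60, and no library of one overlapped the other. Mdm2 (10.5 ± 1.28 in LCS, 10.3 ± 0.60 in WT) and Trp53 (9.23 ± 0.32 and 8.49 ± 1.63) came next and overlapped in both genotypes. Glb1 followed at 7.47 ± 0.95 CPM per kb in LCS and 6.10 ± 0.47 in WT. Cdkn2b (5.49 ± 0.84 and 3.06 ± 1.62), Rb1 (2.57 ± 0.07 and 3.99 ± 0.83) and Cdkn2c (2.81 ± 0.16 and 2.81 ± 0.45) came after it. In WT the values of Cdkn2b overlapped those of Rb1 and of Cdkn2c. Cdkn2a was the lowest in both genotypes, at 0.90 ± 0.17 CPM per kb in LCS and 0.51 ± 0.25 in WT (SD, n = 3 throughout). Lengths were medians over annotated transcripts of another build, so this order is approximate.

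The profiles of the 9 genes over the 6 libraries were compared, and no grouping was tested. The distance between 2 genes was measured as the root mean square difference of their log2 CPM, each centred on its own mean. The nearest pairs were Cdkn1a with Trp53 (0.16), Cdkn2c with Mdm2 (0.18), Trp53 with Mdm2 (0.19), Cdkn1b with Rb1 (0.20), Trp53 with Glb1 (0.22) and Cdkn2a with Cdkn2b (0.23). The farthest was Cdkn2b with Rb1 (1.02). Over the other 9391 or 9392 named genes of at least 5 CPM, the profiles nearest to each gene were those of Zswim1 (0.02) and Gtpbp3 (0.03) for Cdkn1a, and of Zc3h13 (0.04) and Skil (0.04) for Cdkn1b. For Cdkn2a they were Manf (0.07) and Tmem234 (0.08), and for Cdkn2b Dda1 (0.07) and Abhd8 (0.08). For Cdkn2c they were Zfp27 (0.01) and Rcan2 (0.06), for Trp53 Fen1 (0.05) and Tor3a (0.05), and for Mdm2 Nipsnap3b (0.03) and Zc3h15 (0.04). For Rb1 they were Zbtb44 (0.06) and Pnn (0.06), and for Glb1 Carkd (0.04) and Thoc3 (0.05). The median distance of all these genes was 0.26 to 0.69, depending on the gene compared. It was 0.26 for Mdm2 and 0.27 for Cdkn2c, so the pair distances of these genes were not far below it. Each of the 9 genes had these other genes nearer to it than any of the 9. The 6 points of each profile share the libraries' depth and scaling.

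Transcript length moved with genotype over all genes. The median log2 fold change of protein-coding genes went from 0.30 for transcripts of 500 to 1000 nt to -0.24 for those above 4000 nt. Of the 9 genes, Rb1 had the longest transcript (4656 nt) and Cdkn2a the shortest (873.5 nt). Between them, Cdkn1b (2393 nt) and Glb1 (2396 nt) had nearly equal lengths and log2 fold changes of opposite sign (-0.52 and 0.29), and Mdm2, the second longest (3122 nt), was at 0.04. WT replicate 1 was the WT library closest to LCS in the shortest and longest classes: its median deviation from the mean of the 6 libraries was 0.03 above 4000 nt, against 0.15 and 0.20 in WT replicates 2 and 3 and -0.29 to 0.00 in LCS. With an offset for length over 13623 protein-coding genes, the log2 fold change was -0.44 for Rb1 (edgeR adjusted p = 0.199), 0.66 for Cdkn2b (0.252), 0.52 for Cdkn2a (0.505) and 0.06 for Cdkn1a (0.876). Cdkn1b stayed at -0.52 (edgeR adjusted p = 0.173) and Glb1 at 0.30 (0.292). None of the 9 passed with that offset, where 0.316% of genes did (0.279% higher, 0.0367% lower).

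**Figure D3:**
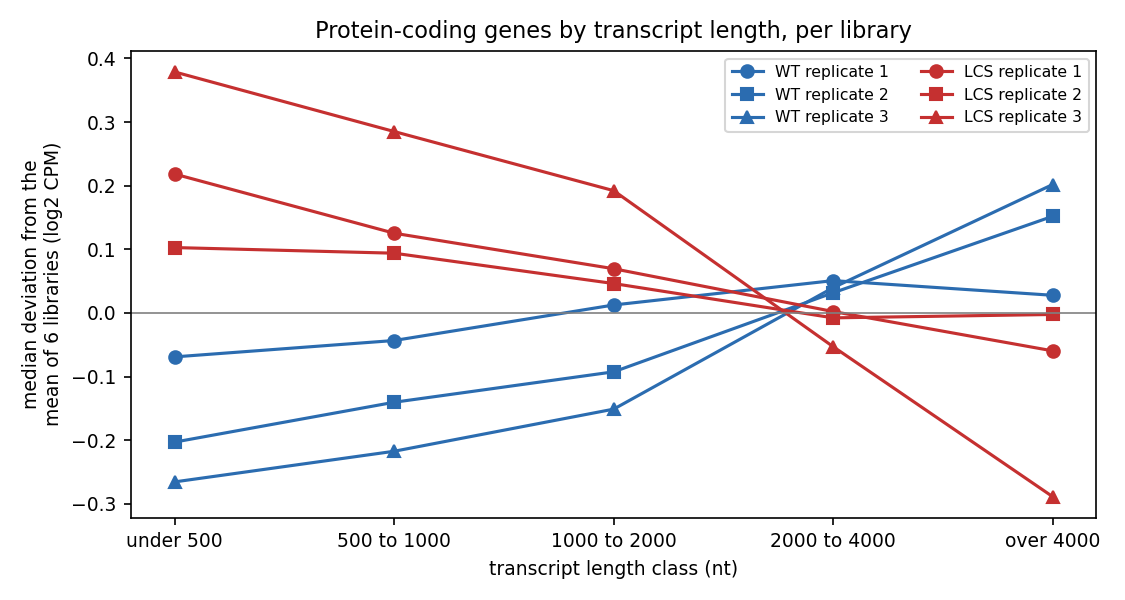
Median deviation of protein-coding genes from the mean of the 6 libraries (log2 CPM) by transcript length class (nt), WT in blue and LCS in red, 1 line per library. The LCS lines start above 0 for short transcripts and the WT lines below it, and above 4000 nt they run from -0.29 in LCS replicate 3 to 0.20 in WT replicate 3.

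The other members of the inhibitor and pocket protein families did not pass either. Cdkn1c, which encodes the CIP/KIP inhibitor p57, was rare, with 0.63, 0.39 and 0.48 CPM in LCS and 0.33, 0.20 and 0.13 CPM in WT. Its groups did not overlap, and its log2 fold change was 1.13 (SE 0.50, edgeR adjusted p = 0.202). This separation rests on few counts, with 20 in LCS replicate 2 and 16 in WT replicate 1, the libraries nearest to each other across genotypes. Rbl1, which encodes the pocket protein p107, lay like Rb1 lower in every LCS library (3.67, 4.65 and 3.70 CPM) than in any WT library (5.28, 6.07 and 6.48 CPM), at -0.56 (SE 0.21, edgeR adjusted p = 0.145). Rbl2, which encodes p130, overlapped between genotypes at -0.23 (SE 0.17, edgeR adjusted p = 0.426). Rbl1 (4862 nt), like Rb1, is among the transcripts above 4000 nt. With the offset for length, Rbl1 was at -0.37 (edgeR adjusted p = 0.308) and Rbl2 at -0.04 (0.909). Cdkn2d, the fourth INK4 gene, had 1 to 18 counts per library and was not tested.

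Of 26 genes that regulate these loci or p53, none passed the test in edgeR, against 2.21% of all genes. DESeq2 called 2, both lower in LCS, or 7.69%, against 3.93% of all genes lower and 6.44% higher. At an unadjusted p under 0.05 there were 7 lower and none higher in LCS, against 10.8% lower and 13.3% higher among all genes. The list median was -0.17. Bmi1, a Polycomb protein that represses the Cdkn2a locus, had 41.9, 48.8 and 37.2 CPM in LCS and 58.7, 70.3 and 80.2 CPM in WT. Every LCS library was below every WT library, at a log2 fold change of -0.71 (SE 0.17, edgeR adjusted p = 0.0578). Mdm4, which restrains p53 together with Mdm2, had 57.7, 51.3 and 39.5 CPM in LCS and 65.6, 104.8 and 119.4 CPM in WT, at -0.96 (SE 0.23, edgeR adjusted p = 0.0599). The Polycomb genes Rnf2 and Suz12 were at -0.44 and -0.52 (edgeR adjusted p = 0.166 and 0.177). The Polycomb genes of the list did not share a direction. Cbx8, Cbx2, Cbx7 and Ring1 were at 0.55, 0.35, 0.19 and 0.06, and Ezh2 and Eed at -0.33 and -0.03. Without WT replicate 1, 6 genes of this list were lower and 1 was higher, or 26.9% against 20.2% of all genes. Bmi1 (-0.82, edgeR adjusted p = 0.00794), Mdm4 (-1.18, 0.00224) and Rnf2 (-0.54, 0.0484) were among them. Bmi1, Mdm4 and Rnf2 did not pass without WT replicate 3 (edgeR adjusted p = 0.191, 0.169 and 0.486) or without LCS replicate 3 (0.217, 0.232 and 0.4615).

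The partners on which the inhibitors act were likewise without a call. Of 20 tested CDK, cyclin and E2F genes none passed in edgeR and 1 passed in DESeq2, against 2.21% and 10.4% of all genes. Unadjusted p was under 0.05 for 1 higher and 1 lower gene, against 13.3% and 10.8% of all genes, and the list median was -0.01. E2f1, an E2F factor that the retinoblastoma protein holds, had 4.56 to 5.01 CPM in LCS and 6.56 to 8.33 CPM in WT. Its groups did not overlap, at -0.66 (SE 0.19, edgeR adjusted p = 0.0912), and DESeq2 called it (-0.68, adjusted p = 0.0203). Ccnd2, which encodes a D-type cyclin that activates CDK4 and CDK6, had 373.2, 443.6 and 229.4 CPM in LCS and 439.9, 487.7 and 540.5 CPM in WT, at -0.49 (SE 0.23, edgeR adjusted p = 0.224). Ccnd3, another D-type cyclin, was at 0.66 (SE 0.29, edgeR adjusted p = 0.199) and passed without WT replicate 1 (1.12, edgeR adjusted p = 0.00388), the only call among the 20 genes in that fit, against 20.2% of all genes. Without WT replicate 3, Ccnd3 was at 0.44 (edgeR adjusted p = 0.509). Cdk1, the kinase that drives mitosis, was rare, with 2 to 22 counts per library. It had 0.63, 0.43 and 0.38 CPM in LCS and 0.25, 0.05 and 0.29 CPM in WT. Its groups did not overlap, at 1.27 (SE 0.59, edgeR adjusted p = 0.223). This separation too rests on few counts, with 12 in LCS replicate 3 and 11 in WT replicate 3.

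Of 26 other p53 target genes, 1 passed in edgeR, as higher in LCS, against 2.06% of all genes higher and 0.144% lower. Bax, which encodes a protein that permeabilises mitochondria in apoptosis, had 54.9, 53.3 and 68.4 CPM in LCS and 40.0, 33.3 and 31.1 CPM in WT. It rose 1.69-fold (log2 0.76, SE 0.16, edgeR adjusted p = 0.0444), with no overlap between groups. The call ended in 7 of 16 alternatives, including that with an offset for length (0.42, edgeR adjusted p = 0.132) and leaving out any library other than WT replicate 1. The list median was 0.04, and an unadjusted p under 0.05 was found for 1 higher and 5 lower genes, against 13.3% and 10.8% of all genes. DESeq2 called 2, against 10.4%. Trp53inp1, Rrm2b and Tigar, which encode a p53-induced nuclear protein, a ribonucleotide reductase subunit and a regulator of glycolysis, were at -0.74, -0.60 and -0.45 (edgeR adjusted p = 0.129, 0.185 and 0.195). In the fit without WT replicate 1, 6 targets were higher and 3 lower, or 34.6% against 20.2% of all genes, and the lower ones were Trp53inp1, Rrm2b and Tigar (edgeR adjusted p = 0.0209, 0.04998 and 0.0458). The genes of this list therefore did not share a direction with or without WT replicate 1. Without WT replicate 3, Trp53inp1, Rrm2b and Tigar did not pass (edgeR adjusted p = 0.397, 0.519 and 0.5645).

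Of 45 tested genes for secreted factors of senescent cells, none passed in edgeR and DESeq2 called 3, against 2.21% and 10.4% of all genes. Unadjusted p was under 0.05 for 5 higher and 2 lower genes, against 13.3% and 10.8%, and the list median was 0.12. Il1b, which encodes the inflammatory cytokine interleukin-1 beta, had 5.59, 6.80 and 6.95 CPM in LCS and 3.14, 3.87 and 3.45 CPM in WT. Its groups did not overlap, at 0.89 (SE 0.20, edgeR adjusted p = 0.0552). The summed macrophage markers given above were also higher in LCS, though the median log2 fold change of that list was 0.02. The part of macrophages in the Il1b value was not tested. Igfbp7, a secreted binding protein for insulin-like growth factors, was at 0.95 (SE 0.28, edgeR adjusted p = 0.0977). Igfbp5 of the same family was at -0.55 (SE 0.19, edgeR adjusted p = 0.126), and the vascular growth factor gene Vegfa at -0.44 (SE 0.15, edgeR adjusted p = 0.13). The median without WT replicate 1 was 0.51, against 0.04 for all genes. In that fit 6 of 46 genes were higher and none lower, or 13%. Of all genes, 12.5% were higher and 7.68% lower. Il1b and Igfbp7 passed in that fit (edgeR adjusted p = 0.0243 and 0.0167). Of 16 alternatives, Il1b did not pass in 12 and Igfbp7 did not pass in 13.

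Among 18 other senescence markers none passed in edgeR and 3 passed in DESeq2, against 2.21% and 10.4% of all genes. Unadjusted p was under 0.05 for 1 higher and 4 lower genes, against 13.3% and 10.8%. Lmnb1, the B-type lamin gene whose loss marks senescent cells, had 6.15, 7.76 and 6.60 CPM in LCS and 10.2, 8.44 and 9.72 CPM in WT, at -0.47 (SE 0.18, edgeR adjusted p = 0.161). Every LCS library lay below every WT library. Sirt1, which encodes a deacetylase, was at -0.81 (SE 0.19, edgeR adjusted p = 0.0557), and Bcl2l2, an inhibitor of apoptosis, at -0.68 (SE 0.20, edgeR adjusted p = 0.0941). Hmgb2, a chromatin protein that is lost in senescence, lay in the other direction at 0.84 (SE 0.19, edgeR adjusted p = 0.0557). In the fit without WT replicate 1, 2 markers were higher and 2 lower, or 22.2% against 20.2% of all genes. Sirt1, Hmgb2 and Bcl2l2 passed there (edgeR adjusted p = 0.00697, 0.0152 and 0.0317) and Lmnb1 did not (0.157). Of 16 alternatives, Sirt1 and Hmgb2 each did not pass in 12, and Bcl2l2 did not pass in 13.

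Glb1 was set beside 32 other lysosomal genes, of which none passed in edgeR and DESeq2 called 2, against 2.21% and 10.4% of all genes. Unadjusted p was under 0.05 for 6 higher genes and 1 lower, against 13.3% and 10.8%, and the list median was 0.09, against 0.29 for Glb1. Ids, which encodes a sulfatase of glycosaminoglycan breakdown, was at -0.87 (SE 0.20, edgeR adjusted p = 0.0557). Fuca1, Gm2a and Hexa, which act on sugar chains and gangliosides as Glb1 does, were at 0.77, 0.61 and 0.48 (edgeR adjusted p = 0.0746, 0.136 and 0.145). With WT replicate 1 left out, 6 were higher and 1 lower, or 21.9% against 20.2% of all genes. Ids, Fuca1, Gm2a and Hexa passed in that fit (edgeR adjusted p = 0.00824, 0.00464, 0.0254 and 0.0175). Of 16 alternatives, Ids did not pass in 11, Fuca1 in 12, and Gm2a and Hexa in 15 each.

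**Figure D4:**
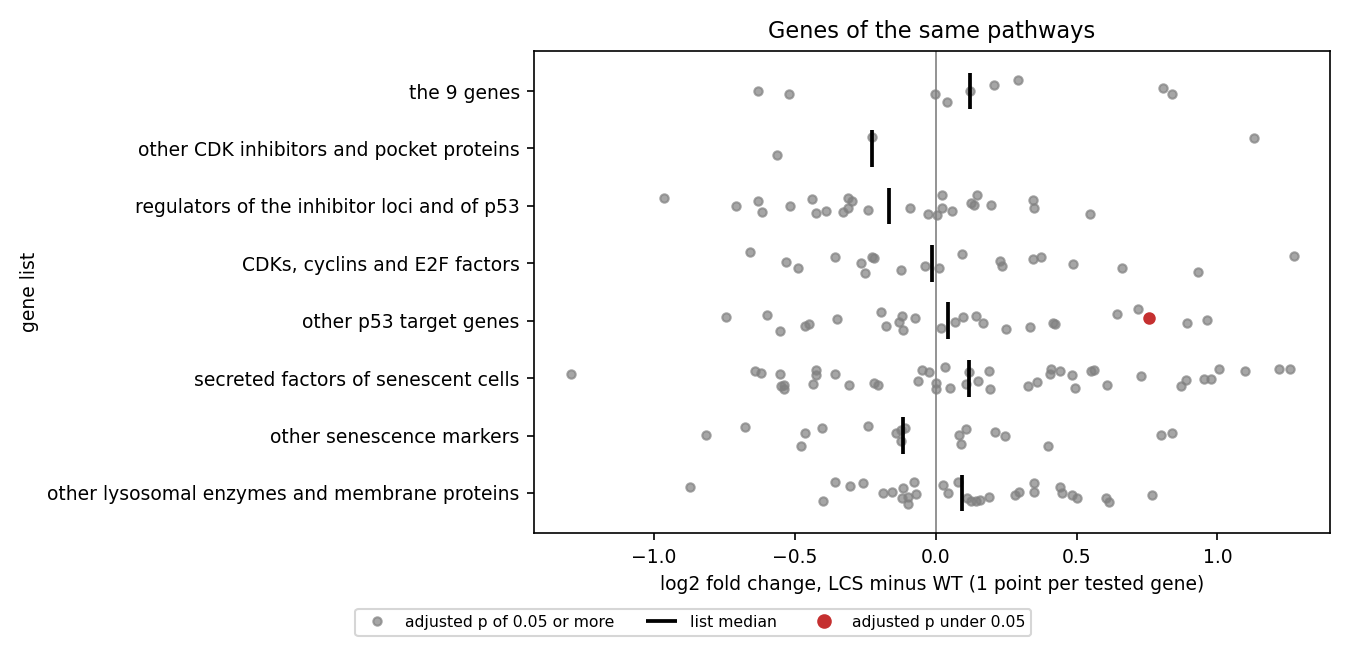
Log2 fold change (LCS minus WT, 1 point per tested gene) of the 9 genes and of 7 related lists, with a black bar at each list's median and called genes (edgeR) in red. List medians lie between -0.23 and 0.12, and Bax (0.76) is the only red point.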

How the data were processed

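Counts per gene for 6 libraries were deposited by the authors as whole numbers, not normalised. TRIzol extraction and stranded TruSeq libraries of poly(A) RNA are stated per the labels' protocols. HTSeq 0.9.0, Bowtie2 2.2.9, TopHat2 2.1.1, FastQC, bcl2fastq 2.20 and the build mm9 are listed, with no roles, in the submitters' processing notes. Annotation and strand setting were not given in the sources used here. Replicates were numbered in accession order, and no batch or pair was labelled.

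Of the 24407 genes, 24320 matched RefSeq GRCm38.p6. Counts were filtered with filterByExpr, scaled by TMM and tested with edgeR 4.0.16 in R 4.3.3, with genotype as the only term. Called means an adjusted p under 0.05. DESeq2 1.42.0 and limma 3.58.1 were alternatives. Steps were tested on simulated data. Transcript lengths were GENCODE M21 medians over protein-coding transcripts, found for 95.2% of tested genes. The fit without an offset on protein-coding genes was added after the data were seen.

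The 9 genes and all lists were chosen with earlier results of these data known. Named are all 9 genes, the other inhibitors and pocket proteins, of each further list the called genes and those with the smallest p up to 4, and the 2 nearest profiles of each of the 9. Genes overlapping the 9 were named by position.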

Additional observations from a re-analysis of the deposited data

How the results depend on the processing

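Over 16 alternatives, 130 of 143 values of the 9 genes kept their direction and their side of the threshold, 5 became calls and 8 changed sign. Of the 9 genes 1 was called by DESeq2 and 2 without WT replicates 1 and 2 together (Cdkn2b and Rb1, where the lone WT library is assumed to vary like the others), and leaving out single libraries gave 0 to 2. The sign changes were small: Cdkn2c was at 0.011 with limma-voom, at 0.0029 with a minimum mean of 1 CPM (which removed Cdkn2a) and at -0.072 to 0.14 when single libraries were left out, and Trp53 (-0.026 to 0.24) and Mdm2 (-0.037 to 0.11) crossed 0 only there. Calls among all genes numbered 321, and 1508 with DESeq2, 686 with no filter, 43 with the length offset (245 for the same genes without it), 1215 without WT replicates 1 and 2, 63 against a 1.5-fold change and 82 to 2999 without single libraries. Calls in the related lists numbered 1, and 13 with DESeq2, 4 with limma-voom, 8 with no filter, 0 with the length offset, 14 without WT replicates 1 and 2, 0 against a 1.5-fold change and 0 to 34 without single libraries; the highest values are without WT replicate 1. The cause of these differences was not tested. No paired analysis was possible because the labels give no replicate numbers that the genotypes share. GENCODE medians can be short where many partial transcripts are listed, as for Bmi1 (617 nt), so the length offset is uncertain for such genes. The 10 to 49 counts of Cdkn2a limit its precision.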

Other observations

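Of the senescence-linked secreted factors, 5 were too rare to test. Igfbp2 had 0 counts in all 6 libraries. Csf2 had 19 counts in LCS replicate 2, 5 in LCS replicate 3 and at most 1 in the other libraries, and Ccl20 had 14 counts in LCS replicate 2 and at most 2 elsewhere. The mitotic cyclin gene Ccnb1 had 1 to 6 counts per library and E2f8 0 to 3, so their levels were near the limit of detection in both genotypes.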
